A study of Mus musculus with 2 samples.

Results

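Contractile smooth muscle cells were taken from 2 libraries of mouse aortic cells as the barcodes with a contractile gene set and few genes of the endothelium or of modulated smooth muscle. A barcode was kept with 300 or more detected genes and no more than 10% of its UMIs (unique molecular identifiers, which mark captured RNA molecules) from mitochondrial genes. A kept barcode was a member when it had a UMI in at least 5 of the 8 genes Acta2, Tagln, Cnn1, Myh11, Myl9, Lmod1, Ppp1r14a and Mylk. It could have a UMI in at most 2 of the 8 endothelial genes Egfl7, Esam, Ecscr, Cdh5, Cldn5, Ptprb, Tie1 and Cd93. The same limit of 2 held for the 10 modulated genes Vcam1, Lum, Timp1, Ltbp2, Grem1, Tnfrsf11b, Prg4, Slurp1, Sfrp2 and Nupr1. This gave 2734 members of 68463 kept barcodes, out of 70127 barcodes in all.

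The study examined CD45, the leukocyte phosphatase encoded by Ptprc, in endothelial cells during atherosclerosis. Mice of both groups were ApoE-/- on a C57BL/6 background, which raises plasma cholesterol, and ate a Western diet. The labels give WT no other allele, while EC-iCD45KO mice had CD45 deleted in the endothelium by a tamoxifen-inducible system. Each group had 1 library from aortas digested with collagenases and Liberase and passed over CD31 microbeads, which enrich endothelial cells and not smooth muscle. Age, sex, the Cre driver, the number of animals and their pooling are not given in the sources used here, nor is tamoxifen treatment of the WT animals. With 1 library per group there was no replicate spread and no test between groups, so every interval below is a 95% interval for counting error only, and a difference between groups cannot be told apart from one between preparations. In summed data, fewer positive cells and less RNA per cell cannot be told apart either.

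Contractile smooth muscle cells form the media of the aorta. Calcium entry activates calmodulin and the myosin light chain kinase Mylk, the kinase phosphorylates the regulatory light chain Myl9, and smooth muscle myosin Myh11 then pulls on actin filaments built from Acta2. Tagln and Cnn1 bind those filaments, Lmod1 nucleates them, and Ppp1r14a inhibits the phosphatase that reverses the phosphorylation. Myocd, with the serum response factor SRF, switches on many of these genes through CArG boxes, and in atherosclerosis part of the cells lose the program and take on a modulated, matrix-producing state.

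The WT library held 1097 members and the EC-iCD45KO library 1637. Members were 2.78% of kept barcodes in WT (interval 2.62 to 2.94) and 5.65% in EC-iCD45KO (5.39 to 5.92). Because the members were chosen by rule, these shares are a description, and both also depend on the bead enrichment and on all other cells of the preparation. Cells with modulated markers, defined by at least 4 modulated and 3 contractile genes, were 3.06% and 4.26%. Endothelial cells, with at least 5 endothelial genes, were 2.23% and 3.59%, and fibroblasts, with at least 5 of 10 markers, were 2.74% and 4.12%. Cells with at least 3 of 4 B-cell markers were 16.3% of kept barcodes in WT and 1.15% in EC-iCD45KO. Macrophages were 33.5% and 56.7%. Apart from B cells, each of these classes thus had a higher share in EC-iCD45KO. Contractile members numbered fewer than modulated cells in WT, with 1097 against 1207, and more than modulated cells in EC-iCD45KO, with 1637 against 1235. That order depends on the rule. With at least 6 contractile genes members numbered 554 and 979, fewer than modulated cells in both libraries. With at least 4 they numbered 1942 and 2417, more in both.

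The limit on modulated genes removed more barcodes than the endothelial limit. At least 5 contractile genes were present in 2006 WT and 3036 EC-iCD45KO barcodes, of which 54.7% and 53.9% became members. The modulated limit alone removed 772 and 1121, the endothelial limit alone 73 and 157, and both together 64 and 121. Just outside the contractile threshold, barcodes with 4 of the 8 genes had Acta2 at 3186 CPM (UMIs scaled to a class total of 1000000) in WT and 3543 CPM in EC-iCD45KO. Just inside it, with 5 genes, Acta2 was at 4982 and 6181 CPM, and with all 8 genes at 21190 and 21391 CPM. Members with 8 genes were also the deepest, with a median of 5476 UMIs in WT and 7179 in EC-iCD45KO, against 1279 and 1164.5 for those with 5 genes. Barcodes with 3 modulated genes, just outside that limit, had Lum at 1353 CPM in WT and 413 CPM in EC-iCD45KO, against 539.7 and 181 CPM with 2 genes. With 3 endothelial genes Acta2 was at 3816 and 7036 CPM, against 9449 and 9932 CPM with 2.

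Members were shallow, and RNA of blood cells was measured in nearly all of them. The median was 1488 UMIs per member in WT and 1510 in EC-iCD45KO, with mitochondrial medians of 2.19% and 3.55%. The 2 libraries shared 340 barcodes, of which 0 were members in both libraries. A UMI of at least 2 of 12 leukocyte genes was present in 97.8% of WT and 92.9% of EC-iCD45KO members. All 10 macrophage markers were detected, with a summed level of 5084 CPM in WT and 9491 CPM in EC-iCD45KO and a median of 4 and 5 of the 10 markers per member. The 5 markers that define a macrophage here were reached by 444 WT members (40.5%) and 978 EC-iCD45KO members (59.7%), and without them 653 and 659 members remain. Igkc, the immunoglobulin kappa constant chain, was at 13450 CPM in WT and 185 CPM in EC-iCD45KO. Immunoglobulin and haemoglobin genes took at least 1% of the UMIs in 200 WT members (18.2%) and in 5 EC-iCD45KO members. The 8 B and plasma cell markers summed to 17212 and 284 CPM, the 5 erythroid markers to 1670 and 53.4 CPM, the 8 T and NK markers to 567 and 67.9 CPM, and the 6 neutrophil markers to 86.5 and 332 CPM. Their part in the differences below was not tested, and values within members of at least 4000 UMIs, 119 in WT and 266 in EC-iCD45KO, are given beside most of those differences. No doublet caller was run. Markers of heart muscle were low, at 53.4 and 17.6 CPM over 7 genes, with Myh6, Myl7 and Nppa at 0 in both libraries.

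Of the 6 genes given as markers of the label, Cnn1, Myh11, Lmod1 and Ppp1r14a belong to the rule that chose the members, so their levels are a description and no support for the label. Of the other 2, Myocd was higher in members than in every comparison class and S100g went against the label. Myh11 was at 1622 CPM in WT members and 2168 CPM in EC-iCD45KO members, with 24.7 CPM or less in endothelial cells, fibroblasts, macrophages and B cells of either library. Myocd, the coactivator of the program, was at 181 and 221 CPM in members, 69.0 and 106 CPM in modulated cells, and 5.20 CPM or less elsewhere. The calcium-binding protein gene S100g had 1 UMI in WT members and 14 in EC-iCD45KO members, or 0.424 and 3.07 CPM, and was higher in the modulated cells of EC-iCD45KO, at 32.4 CPM. It was therefore nearly absent from members of both libraries. After each cell was thinned to 1000 UMIs, which left out 206 and 386 members, Myh11 was detected in 67.1% of WT members (63.9 to 70.2) and 73.8% of EC-iCD45KO members (71.2 to 76.2), against 0.695% and 1.96% of endothelial cells. Unthinned median depths were 1488 and 1510 UMIs in members and 3519 and 3617.5 in endothelial cells. The rule fixes that contrast for Myh11. Myocd was detected in 13.7% and 15.5% of thinned members and in 0 of 863 and 0 of 1020 thinned endothelial cells, where 3 counts would be shares of 0.348% and 0.294%. Unthinned, it was detected in 22.1% and 26.3% of members and in 0.227% and 0.288% of endothelial cells.

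**Figure D1:**
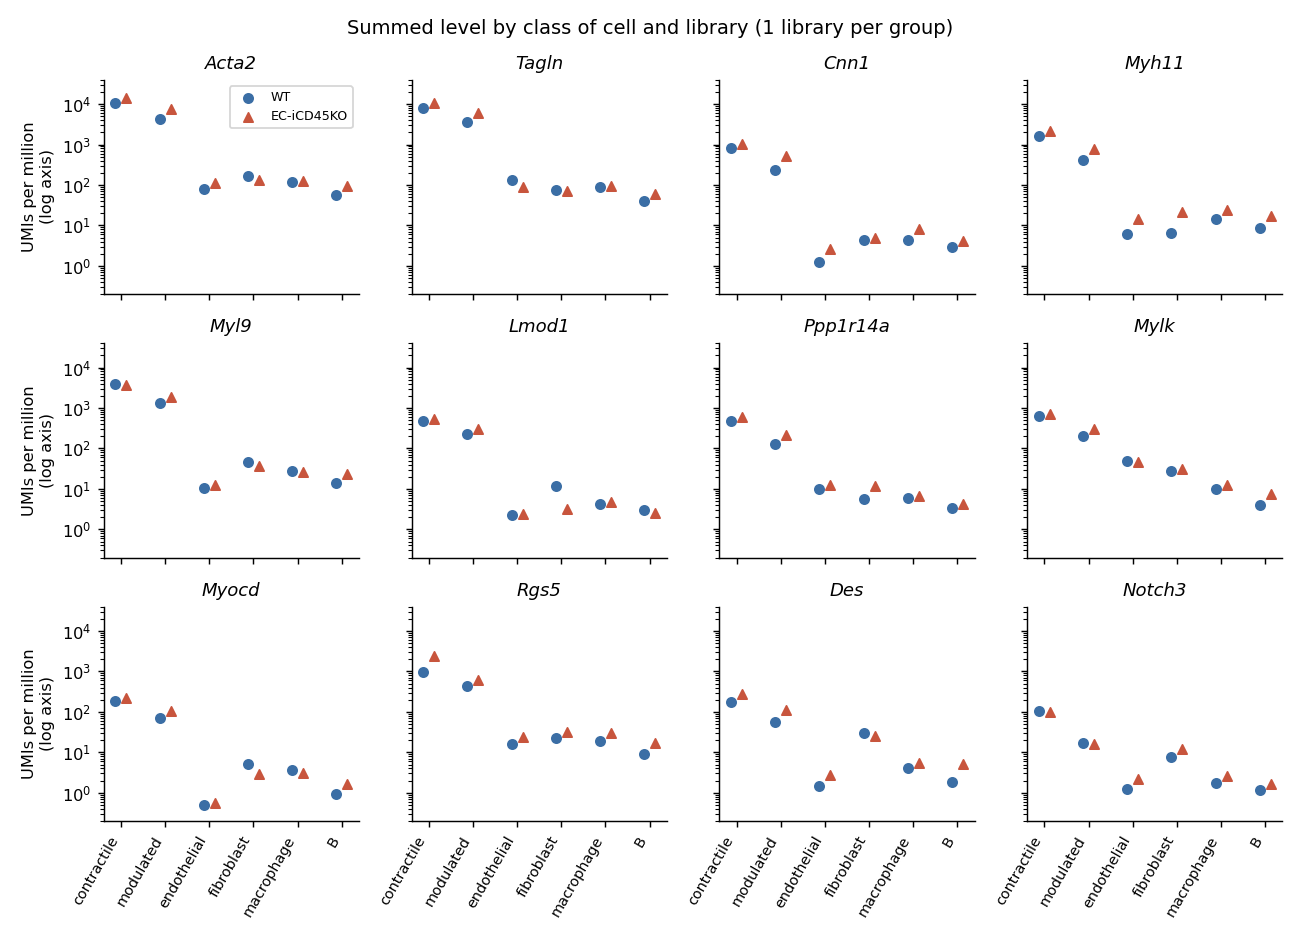
Summed level (CPM, log axis) of the 8 contractile genes of the rule and of Myocd, Rgs5, Des and Notch3 in 6 classes of cells, circles for WT and triangles for EC-iCD45KO, 1 library each. For each of these genes the members lie highest and modulated cells next, with Myh11 at 1622 and 2168 CPM in members.

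The 8 genes of the rule had a median log2 ratio of 0.31 between EC-iCD45KO and WT members, 7 of them higher and 1 lower. Over all 6672 genes tested the median was 0.01, with 50.9% higher and 49.1% lower. Acta2 was at 10917 CPM in WT and 13832 CPM in EC-iCD45KO, which gives a ratio on the log2 scale of 0.34 (0.32 to 0.36). Tagln was at 8079 and 10712 CPM, with a ratio of 0.41 (0.38 to 0.43). Cnn1 was at 801 and 1010 CPM, Lmod1 at 474 and 541 CPM, Ppp1r14a at 479 and 583 CPM, and Mylk at 622 and 706 CPM. Myl9, the light chain, was the 1 lower over all members, at 3994 CPM in WT and 3678 CPM in EC-iCD45KO, which gives a ratio on the log2 scale of -0.12 (-0.16 to -0.08). Among members with at least 4000 UMIs the median over the 8 genes was 0.04, with Acta2 at 17065 and 17740 CPM (0.06, 0.03 to 0.08) and Myl9 at 6177 and 4677 CPM (-0.40, -0.45 to -0.35). There 5 were higher (45.0% of all genes) and 3 lower (55.0%), with Mylk at -0.18 (-0.30 to -0.06) and Lmod1 at -0.03 (-0.17 to 0.11). The higher Acta2 level of EC-iCD45KO members was thus nearly absent in the deepest cells, whereas Myl9 was lower there by more.

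Promoters of Acta2 and Myl9 carry the CArG form that SRF binds, and are shown with that of Rgs5, the 1 of the 20 leading genes outside the rule that differed by over 2-fold between the libraries. Each sequence holds the 250 bases before the RefSeq start site on GRCm38.p6, 5′ to 3′ on the gene's strand. Capitals mark each match to CCNNNNNNGG in which at most 1 of the 6 N bases was G or C, a form that reads alike on both strands. The Acta2 window lies at chr19:34255374-34255623 on the minus strand, that of Myl9 at chr2:156775214-156775463 on the plus strand and that of Rgs5 at chr1:169655251-169655500 on the plus strand.
Acta2: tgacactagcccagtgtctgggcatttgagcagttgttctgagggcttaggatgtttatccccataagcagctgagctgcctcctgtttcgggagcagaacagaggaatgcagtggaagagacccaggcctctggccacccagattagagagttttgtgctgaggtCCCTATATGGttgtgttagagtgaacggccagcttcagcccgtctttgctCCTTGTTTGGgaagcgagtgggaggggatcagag
Myl9: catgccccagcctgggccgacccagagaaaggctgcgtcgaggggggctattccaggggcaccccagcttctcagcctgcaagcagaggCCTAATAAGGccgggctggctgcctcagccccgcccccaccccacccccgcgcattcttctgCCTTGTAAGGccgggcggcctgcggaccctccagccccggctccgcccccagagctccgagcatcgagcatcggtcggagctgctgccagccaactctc
Rgs5: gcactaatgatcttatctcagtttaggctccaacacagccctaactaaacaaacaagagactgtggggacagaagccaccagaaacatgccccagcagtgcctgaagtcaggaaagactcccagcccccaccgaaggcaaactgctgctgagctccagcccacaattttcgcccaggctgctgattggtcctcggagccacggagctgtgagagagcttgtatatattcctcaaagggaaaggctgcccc
Acta2 and Myl9 each held 2 matches, and CCTAATAAGG of Myl9 had only A and T between its ends. The form with at most 1 G or C was in 8.59% of all 32851 promoter windows of this length, and the form with A and T only in 1.47%. Of the 8 rule genes 6 matched the promoter table, and the other 4 of these held no match in the window. Of the 74 contractile genes outside the rule 65 matched, 13 of them with the looser form in 15 of 81 windows (18.5%) and 6 with the stricter form. The 6 were Dmd, Fhl1, Fhl2, Myl6, Trpc6 and Vcl. A match is a description of letters, and its absence from the Rgs5 window says only that these letters are not there.

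Genes outside the rule were compared between members and other cells. The comparison was with modulated, endothelial, fibroblast and macrophage cells. Of 6654 genes that averaged 20 CPM or more, 15 (0.225%) were at least 4-fold above each of these 4 classes in both libraries, with a class under 3 UMIs set at 3, and 689 of 6672 (10.3%), rule genes included, were above them by any amount. Of the 64 contractile genes of the lists below, 42 were above all 4. Since the rule chose the cells, these are a description. Notch3, the Notch receptor of arterial smooth muscle, was at 106 CPM in WT and 99.1 CPM in EC-iCD45KO members, against 16.6 and 16.3 CPM in modulated cells, the next class. Nrip2, a nuclear receptor interacting protein, was at 66.5 and 37.8 CPM and at 2.17 and 0.827 CPM in modulated cells. Higd1b, a gene listed here with pericyte markers, was at 30.9 and 48.5 CPM against 0.576 CPM or less in every other class of WT and 0.945 CPM or less in EC-iCD45KO. Pln, the phospholamban that restrains the calcium pump of the sarcoplasmic reticulum, was at 43.7 and 40.6 CPM against 3.47 and 3.90 CPM. The transcription factor gene Tbx2 was at 30.9 and 26.1 CPM against 6.51 and 5.08 CPM. The other 10 were Olfr558, Rgs6, Slc38a11, Dgkb, Il34, Rgs4, Stac, Pcp4l1, Gm13861 and Col19a1.

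Where both libraries had 50 CPM or more, genes were ranked by their excess over the highest other class, taken as the lower of the 2 libraries. The 20 with the largest excess began with Notch3, Dgkb and Rgs4. Dgkb, a diacylglycerol kinase, was 3.54 log2 units above the next class in WT and 2.55 in EC-iCD45KO. Rgs4, which limits signalling of G-protein-coupled receptors, was 2.97 and 2.14 units above. Receptors for vasoconstrictors followed, with P2rx1, an ATP-gated channel, 2.21 and 1.83 units above and Npy1r, the neuropeptide Y receptor, 2.71 and 1.60 units above. Gucy1a1, a subunit of the nitric oxide receptor, was 1.40 and 1.32 units above. The potassium channel subunit Kcnab1, the kinase anchor Akap6 and the amine oxidase Aoc3 stood 1.41 to 2.25 units above in the 2 libraries. Cytoskeletal genes completed the set, among them Des, the intermediate filament desmin, at 180 CPM in WT and 275 CPM in EC-iCD45KO against 56.8 and 112 CPM in modulated cells. Tpm1, Synpo2, Filip1l, Pdlim3, Myom1 and Ctnna3 were 1.19 to 1.78 units above, and Parm1, Pcp4l1 and Map3k7cl 1.26 to 2.61 units above. The set ended with Rgs5, 1.18 units above in WT and 2.00 in EC-iCD45KO.

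**Figure D2:**
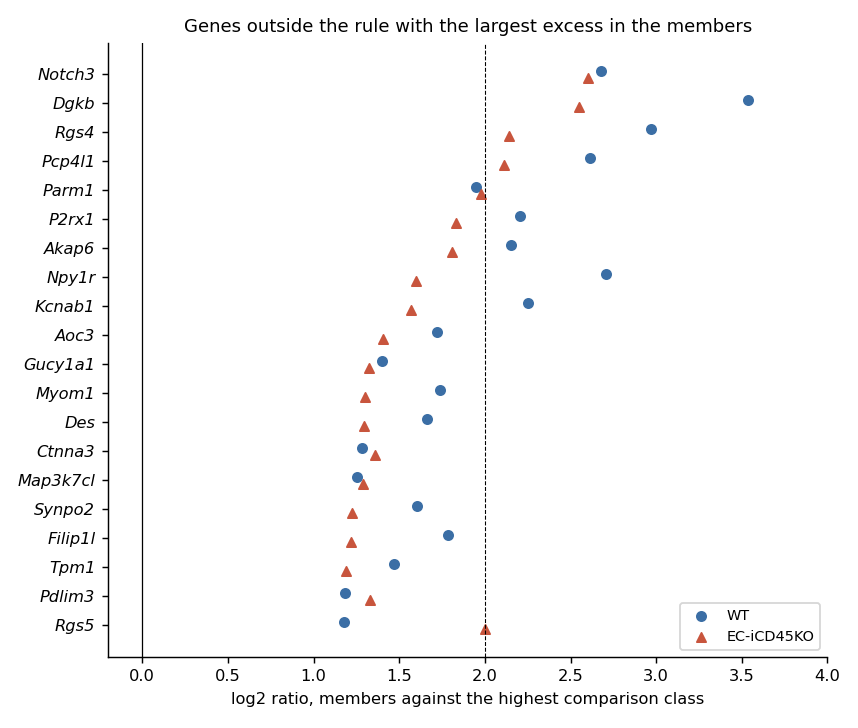
Log2 ratio of the summed level in members to that in the highest of the 4 comparison classes, for the 20 genes outside the rule with the largest excess, circles for WT and triangles for EC-iCD45KO, with a dashed line at 4-fold. Ranked by the lower of the 2 libraries, Notch3 leads at 2.68 and 2.60, and Rgs5 closes the set at 1.18 and 2.00.

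Of the 74 contractile genes in 4 lists outside the rule, 64 averaged 20 CPM or more. Of these, 51 were higher in members than in modulated cells in both libraries, where 54.7% of all genes tested were. Ppp1r12a, the targeting subunit of myosin phosphatase, was at 716 and 728 CPM in members against 352 and 367 CPM in modulated cells. Flna, filamin A, was at 646 and 1098 CPM against 298 and 511 CPM, and the calcium channel Cacna1c at 149 and 184 CPM against 56.1 and 91.5 CPM. Actg2, the gamma smooth muscle actin, was higher than in modulated cells in WT, at 139 against 49.3 CPM, and lower in EC-iCD45KO, at 120 against 132 CPM. Of 16 modulated genes outside the rule 15 were lower in members in both libraries, where 24.7% of all genes tested were. Spp1, osteopontin, was at 1389 and 1773 CPM in members against 10381 and 10938 CPM in modulated cells. Of 33 matrix genes, 12 were higher in members than in modulated cells in both libraries (54.7% of all genes tested) and 21 were lower (24.7%). Mgp, an inhibitor of calcification, was at 4876 and 7504 CPM in members and lower than in modulated cells in both libraries. Sparcl1 was at 543 and 520 CPM in members against 54.9 and 92.6 CPM in modulated cells.

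Between the libraries, members had 113 of 6672 genes at least 2-fold higher in EC-iCD45KO (1.69%) and 239 at least 2-fold lower (3.58%), with a median log2 ratio of 0.01 over all genes tested. The targeted gene Ptprc was at 344 CPM in WT members and 154 CPM in EC-iCD45KO members, which gives a ratio on the log2 scale of -1.16 (-1.31 to -1.01). Smooth muscle lies outside an endothelial deletion, so this does not check the deletion. Ptprc was detected after thinning in 32.0% of WT and 14.7% of EC-iCD45KO members, and in 41.6% and 26.2% of the macrophages. In members with at least 4000 UMIs it was at 180 and 113 CPM, a ratio of -0.66, and without members that held 5 or more macrophage markers the ratio was -2.51.

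Contractile genes outside the rule were slightly higher in EC-iCD45KO members as a group, by less than 2-fold each, and the median difference was smaller in the deepest cells. The median log2 ratio of the 64 genes was 0.33, against 0.01 for all genes tested. It was positive for 54 genes (50.9% of all genes tested) and negative for 10 (49.1%), beyond counting error for 43 (22.7% of all genes) and 6 (22.0%), and past 2-fold for 0. Among members with at least 4000 UMIs, 68 genes had a median of 0.02, with 37 higher (45.0% of all genes) and 31 lower (55.0%), 19 (10.6%) and 13 (13.7%) of them beyond counting error, and 0 past 2-fold higher (1.94%) and 1 lower (2.76%). In the 24 WT and 116 EC-iCD45KO members with fewer than 2 leukocyte genes the median was -0.05. The medians of all genes tested in these 2 subsets were -0.04 and -0.13, so the contractile medians lay above them by less than over all members.

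By role, the median over 9 thin filament genes was 0.39, over 15 thick filament and phosphorylation genes 0.08, over 23 dense plaque and intermediate filament genes 0.45 and over 17 calcium and channel genes 0.31. The dense plaque, which anchors filaments to the membrane, was the group with the widest difference and kept a median of 0.28 in members with at least 4000 UMIs, where the others were 0.07, -0.12 and -0.13. Flna, at 646 CPM in WT and 1098 CPM in EC-iCD45KO, had a log2 ratio of 0.76 (0.68 to 0.85) and of 0.55 in those deep members. Vim, the intermediate filament vimentin, was at 3105 and 5093 CPM, with 0.71 (0.68 to 0.75) and 0.41 in deep members. Pdlim3, a filament-binding protein, was at 158 and 283 CPM, with 0.84 (0.67 to 1.01) and 0.50. In the thin filament, the actin crosslinker Actn1 was at 346 and 592 CPM, with 0.77 (0.66 to 0.89) and 0.45, and smoothelin, Smtn, at 199 and 367 CPM, with 0.88 (0.73 to 1.03) and 0.65.

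Gucy1a1 and Gucy1b1, the subunits of the nitric oxide receptor, were lower in EC-iCD45KO members. Gucy1a1 was at 181 CPM in WT and 147 CPM in EC-iCD45KO, which gives a ratio on the log2 scale of -0.29 (-0.47 to -0.11), and Gucy1b1 at 113 and 94.4 CPM, with -0.26 (-0.48 to -0.04). In members with at least 4000 UMIs their ratios were -0.76 and -0.75, and without the deepest 10% of members that of Gucy1a1 was 0.16. In modulated cells Gucy1a1 was at 68.5 and 59.0 CPM, and Gucy1b1 at 37.0 and 44.7 CPM. Among calcium genes, Kcnmb1, the smooth muscle subunit of the large-conductance potassium channel, was at 60.6 and 114 CPM, with a ratio of 0.91 (0.64 to 1.19) and 0.56 in deep members. Stim1, the calcium sensor of the sarcoplasmic reticulum, was at 102 and 58.9 CPM, with -0.80 (-1.05 to -0.54) and -0.67 in deep members.

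**Figure D3:**
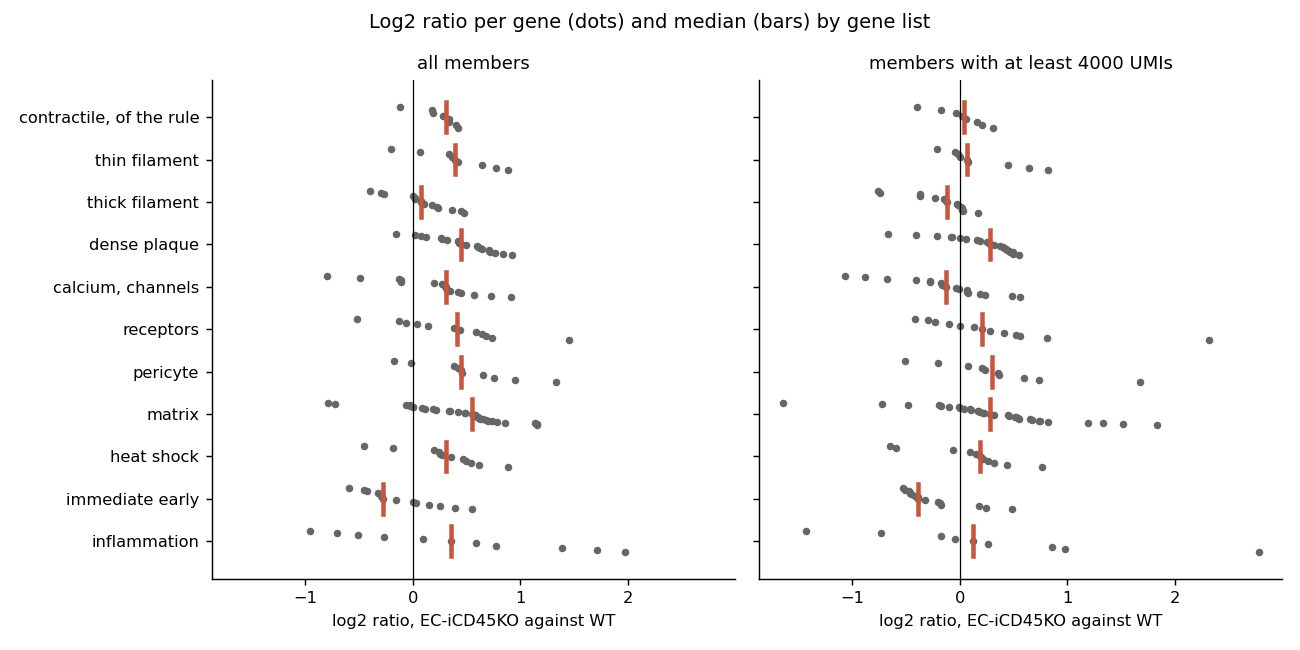
Log2 ratio of EC-iCD45KO to WT for each gene with a mean of at least 20 CPM (dots) and the list's median (bars), over all members on the left and over members with at least 4000 UMIs on the right. The median of the 8 rule genes is 0.31 on the left and 0.04 on the right, whereas dense plaque and matrix genes keep 0.28 on the right.

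Rgs5, which restrains G-protein-coupled receptors and marks pericytes and some arterial smooth muscle, was the 1 of the 20 leading genes past 2-fold between the libraries, a count no larger than over all genes (1.69% higher and 3.58% lower). It lies at chr1:169655501-169695813 on GRCm38 and overlaps no other annotated gene. Members had Rgs5 at 966 CPM in WT (927 to 1006) and 2432 CPM in EC-iCD45KO (2387 to 2478), which gives a ratio on the log2 scale of 1.33 (1.27 to 1.40), and 0.78 without the deepest 10% of members. It was detected after thinning in 34.8% of WT members (31.7 to 38.0) and 48.6% of EC-iCD45KO members (45.8 to 51.4), and in 1.74% and 2.75% of endothelial cells. The difference was widest in the deepest members. Members below 1000 UMIs had 865 and 1334 CPM, and those with at least 4000 UMIs had 1021 and 3263 CPM, a ratio of 1.68 (1.57 to 1.78). Modulated cells were at 427 and 608 CPM, with a smaller log2 ratio of 0.51 (0.45 to 0.58).

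The other pericyte markers tested differed by less than 2-fold over all members. Of the 11 listed, Rgs5 included, 10 were tested, with a median of 0.45, 8 higher (50.9% of all genes) and 2 lower, 7 higher beyond counting error (22.7%) and 1, Rgs5, past 2-fold higher (1.69%). In deep members the median was 0.30, with 4 higher (10.6%) and 1 lower (13.7%) beyond counting error. Without members with 2 leukocyte genes, which left 24 and 116 members, it was -0.49. Mcam, an adhesion molecule of mural cells, was at 80.1 and 155 CPM, with a log2 ratio of 0.95 (0.72 to 1.19), and Cspg4, the NG2 proteoglycan, at 82.7 and 139 CPM, with 0.75 (0.52 to 0.99). Higd1b had a ratio of 0.65 (0.26 to 1.05). Kcnj8 and Abcc9, the subunits of the vascular KATP channel, were higher in modulated cells than in members in both libraries, at 23.7 and 32.5 CPM for Kcnj8 in members against 49.4 and 46.6 CPM. Pdgfrb was likewise at 41.5 and 54.2 CPM in members against 72.0 and 71.0 CPM. Of the 10 tested, Rgs5 included, 4 were higher than in modulated cells in both libraries (54.7% of all genes) and 4 lower (24.7%). The members thus had high Rgs5 without the other pericyte markers being uniformly above modulated cells.

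Sost and Ednrb were named after their values were seen, the first for its level and the second as a listed receptor past 2-fold. Sost, the secreted Wnt inhibitor sclerostin, lies at chr11:101962458-101967015. It was at 120 CPM in WT (106 to 135) and 318 CPM in EC-iCD45KO (302 to 335), which gives a ratio on the log2 scale of 1.41 (1.22 to 1.60), and had 53.5 and 79.5 CPM in modulated cells and 4.20 CPM or less elsewhere. It was detected in 7.07% of thinned WT members (5.48 to 8.96) and 18.1% of EC-iCD45KO members (16.0 to 20.3). In members with at least 4000 UMIs the levels were 214 and 419 CPM, with a ratio of 0.97 (0.74 to 1.20). Ednrb, an endothelin receptor, was the 1 of 12 tested receptors past 2-fold higher (1.69% of all genes), at 25.4 and 69.6 CPM, with 1.45 (1.05 to 1.88) overall and 2.32 (1.61 to 3.12) in deep members. Without the deepest 10% of members its ratio was 0.46. Endothelial cells held more Ednrb than members in both libraries, at 103 and 111 CPM. Ednra, the endothelin receptor of the arterial media, was at 25.4 and 26.1 CPM and did not differ beyond counting error, at 0.04 (-0.42 to 0.51).

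**Figure D4:**
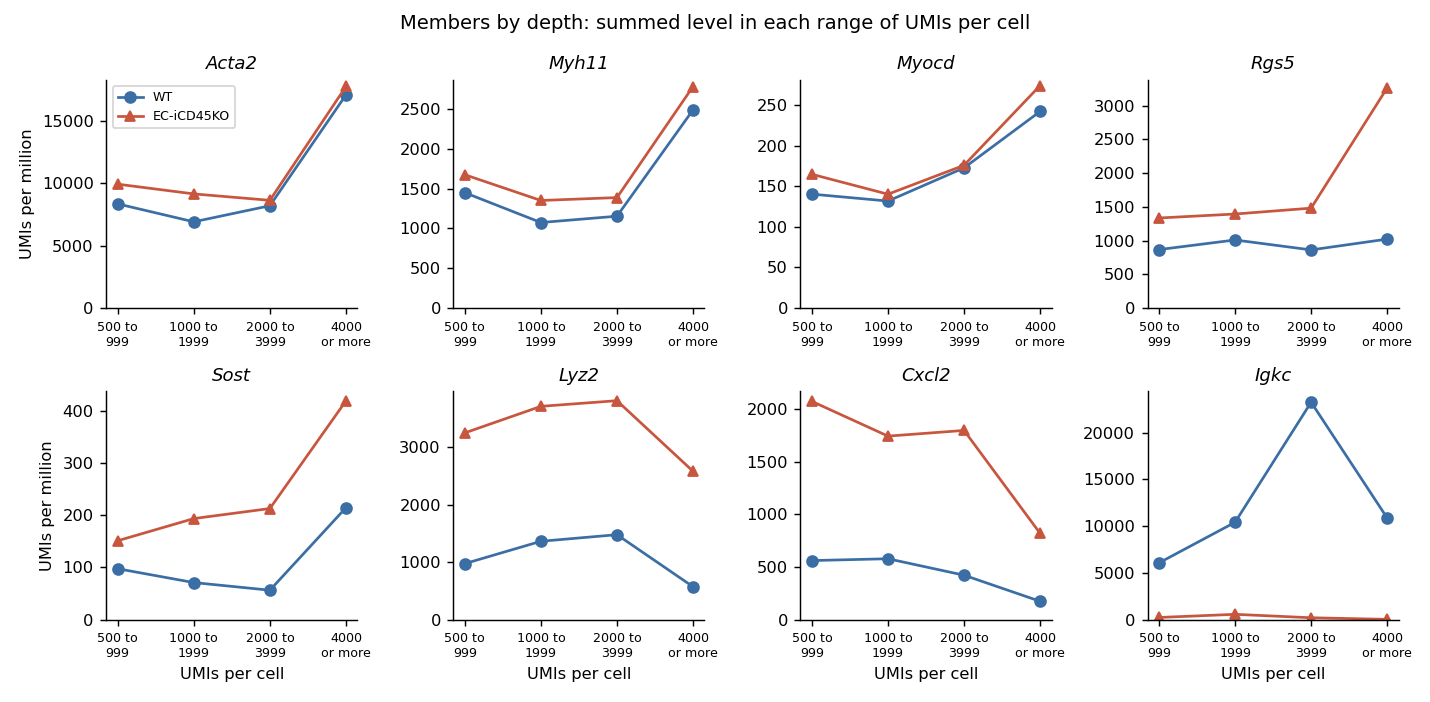
Summed level (CPM) in members grouped by UMIs per cell, circles for WT and triangles for EC-iCD45KO, with axes from 0. Acta2 is at 17065 and 17740 CPM in the deepest group and Rgs5 at 1021 and 3263 CPM, while Igkc is at 6064 CPM or more in every WT group.

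Matrix genes were mostly higher in EC-iCD45KO members. Of 33 elastic fibre and basement membrane genes 28 were higher and 5 lower, 22 and 2 of them beyond counting error, with a median of 0.55. Over all genes tested 50.9% were higher and 49.1% lower, 22.7% and 22.0% beyond counting error. The median was 0.28 in members with at least 4000 UMIs, where 25 were higher (45.0% of all genes) and 8 lower (55.0%). Past 2-fold higher were 3 genes (1.69% of all genes). Fn1, fibronectin, was at 659 CPM in WT and 1464 CPM in EC-iCD45KO, which gives a ratio on the log2 scale of 1.15 (1.07 to 1.23), and of 1.51 in deep members. Mfap4, a microfibril glycoprotein, was at 112 and 246 CPM, with 1.14 (0.94 to 1.34) and 1.33. Col15a1, a basement membrane collagen, was at 23.7 and 52.9 CPM, with 1.16 (0.73 to 1.60) and 1.83. Eln, elastin, was at 442 and 718 CPM, with 0.70 (0.60 to 0.80) and 0.54. Dcn, the proteoglycan decorin and a fibroblast marker, went the other way at 661 and 384 CPM, with -0.78 (-0.88 to -0.68) and -1.64. The 10 fibroblast markers, Dcn included, summed to 1711 CPM in WT and 1243 CPM in EC-iCD45KO members. Gene by gene they did not fall as a set. Of 8 tested, 5 were higher (50.9% of all genes) and 3 lower (49.1%), with a median of 0.12.

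Transcription factors of the program differed in both directions. Of 30 listed, 18 were tested, 9 higher (50.9% of all genes) and 9 lower (49.1%), with a median of 0.02. Beyond counting error 3 were higher (22.7%) and 6 lower (22.0%). In deep members the median was -0.17, with 7 of 20 higher (45.0%) and 13 lower (55.0%). Myocd had a ratio of 0.29 (0.12 to 0.45), and 0.18 (-0.05 to 0.41) in deep members. Its cofactors Mrtfa, at 51.3 and 54.5 CPM, and Mrtfb, at 43.2 and 45.0 CPM, did not differ beyond counting error. Srf was below the level tested, at 7.63 CPM in WT members. Ebf1, a factor of both B cells and mural cells, was past 2-fold lower, at 866 and 384 CPM, with -1.18 (-1.27 to -1.08) and -0.76 in deep members. It was at 1759 and 1577 CPM in B cells, which were the larger class in WT. Of 10 Notch pathway genes 8 were tested, 4 higher and 4 lower, with a median of 0.02. In deep members the median was -0.17, with 2 higher (45.0% of all genes) and 6 lower (55.0%). Of the 6, 3 were lower beyond counting error (13.7% of all genes) and 2 past 2-fold (2.76%). Notch3 did not differ beyond counting error over all members, at -0.10 (-0.33 to 0.13), and was at -0.39 (-0.67 to -0.10) in deep members. Nrip2 was lower at -0.82 (-1.14 to -0.50) and -1.16 in deep members. Among the Hox genes listed, Hoxa7, at 22.5 and 34.9 CPM, and Hoxc10, at 19.5 and 29.2 CPM, were the ones that reached the level tested.

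Stress and inflammatory genes split. Over all genes tested 50.9% were higher and 49.1% lower, and in deep members 45.0% and 55.0%. Of 12 heat shock genes 10 were higher and 2 lower in EC-iCD45KO, with a median of 0.31, and 9 were higher and 3 lower in deep members, with a median of 0.19. Without members with 2 leukocyte genes the median was -0.12. Hspb1, a small heat shock protein, was at 2864 and 4160 CPM, with 0.54 (0.50 to 0.58) and 0.26 in deep members. Of 15 immediate early genes 9 were lower and 6 higher, with a median of -0.27, and 12 were lower and 3 higher in deep members, with a median of -0.39. Junb was at 1088 and 721 CPM, with -0.59 (-0.67 to -0.52) and -0.47 in deep members. Of 11 interferon and MHC class I genes 10 were lower and 1 higher, with a median of -0.37, and of -0.02 in deep members, where 8 of 9 were lower, 2 of them beyond counting error (13.7% of all genes). Among inflammatory genes 3 of 11 were past 2-fold higher (1.69% of all genes), namely Ccl2, Ccl7 and Cxcl1. In deep members 1 of 9 was past 2-fold higher (1.94%) and 1 lower (2.76%), with Ccl2 at 0.86 and Cxcl1 at 0.97. The median of this list was 0.35, but -0.89 without members that held 5 or more macrophage markers and -0.38 without those with 2 leukocyte genes. Plin2, the coat protein of lipid droplets, was at 86.5 and 212 CPM, with 1.29 (1.08 to 1.52) and 1.39 in deep members, and was at 53.8 and 105 CPM in modulated cells.

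Of the 10 genes highest in EC-iCD45KO relative to WT, averaging 50 CPM or more, 9 had a higher level in another class of at least 1 library. That share is near the background, since 10.3% of all genes were above every class in both libraries. The 9 were S100a8, Pla2g7, S100a9, Ccl7, Ifitm1, Ccl2, Cwc22, Cxcl2 and Ccl3. Cxcl2, a neutrophil chemokine, was at 395 CPM in WT and 1265 CPM in EC-iCD45KO members, which gives a ratio on the log2 scale of 1.68 (1.58 to 1.78), and at 1694 and 3654 CPM in macrophages. Without members that held 5 or more macrophage markers its ratio was 0.93, and in deep members it was 2.24 (1.99 to 2.49). S100a9, a neutrophil protein, was at 47.9 and 190 CPM in members and 116 and 294 CPM in macrophages. Its ratio was 1.99 over all members and 4.82 (3.45 to 6.70) in deep members, where WT held 4 UMIs. Ccl7, a monocyte chemokine, was at 28.0 and 110 CPM in members and at 118 and 521 CPM in fibroblasts, with a ratio of 1.98 overall and 2.78 in deep members. Cwc22, a splicing factor that shares its locus and strand with the annotated gene Gm13727, so that its counts are uncertain, was higher in EC-iCD45KO in members and in all 5 other classes.

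The 10 genes lowest in EC-iCD45KO relative to WT were 6 genes of plasma cells, 3 haemoglobin genes and Ibsp. Ighg3, an immunoglobulin heavy chain, had 1786 UMIs in WT members and 0 in EC-iCD45KO members, at least 1149-fold lower against a floor of 3 counts over the group. Igha, Jchain, Ighg2c, Igkc and Ighm had log2 ratios between -7.04 and -5.57. Hbb-bt, Hbb-bs and Hba-a2, the last a near-identical copy of another alpha globin gene, had ratios between -5.22 and -4.98. In deep members Hbb-bs had -1.03 and Hba-a2 0.22, and Hbb-bt was at 2.40 and 1.20 CPM. Ibsp, a bone matrix protein, was at 193 and 5.27 CPM in members, with -5.19 (-5.85 to -4.60) and -3.30 in deep members, and at 1258 and 329 CPM in modulated cells. Igkc had a ratio of -8.60 in deep members. Hbb-bs was detected in 8.20% of WT and 7.82% of EC-iCD45KO members before thinning. Without the members with 1% or more immunoglobulin and haemoglobin UMIs, Hbb-bt, Hba-a2 and Hbb-bs had ratios of 1.03, 0.80 and 0.21, in a subset that the haemoglobin UMIs themselves chose.

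**Figure D5:**
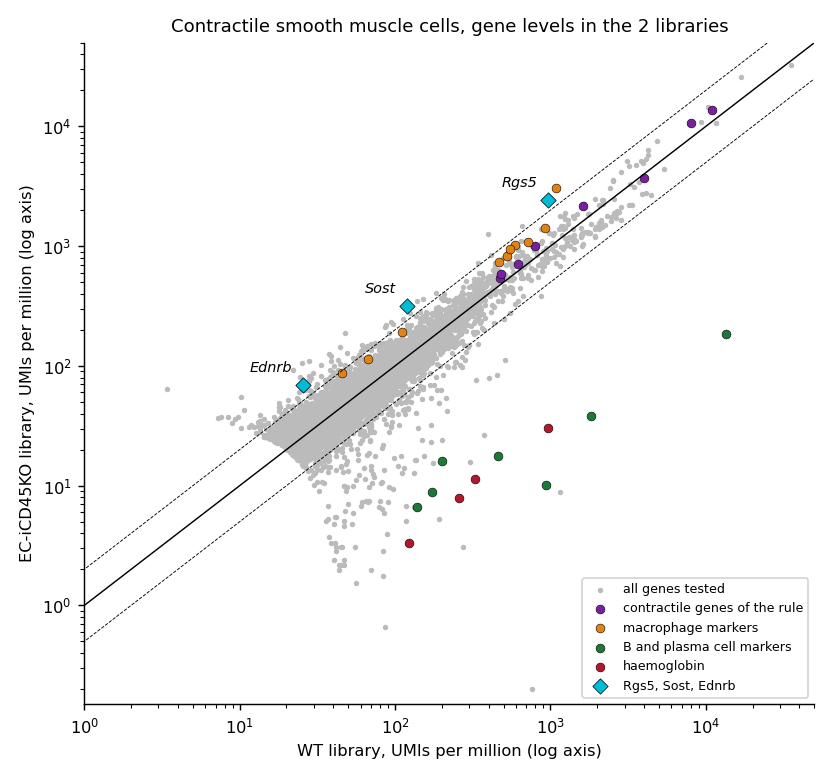
Summed level of each of the 6672 genes tested in members, WT against EC-iCD45KO (CPM, log axes), with lines at equality and 2-fold and Ighg3, at 0 in EC-iCD45KO, drawn near the lower edge. Contractile genes lie close to equality, macrophage markers above it, and B and plasma cell and haemoglobin genes far below it.

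After thinning to 1000 UMIs the median variance to mean ratio over 3026 genes was 1.04 in both libraries, near that of counting alone. Genes were ranked by the lower ratio of the 2 libraries, with no adjustment for the mean level. The 15 highest were Igkc, Malat1, Spp1, Mgp, Ighg2b, Hspb1, Acta2, Gm42418, Tagln, Ccl21a, Cd74, Fabp4, Lyz2, Rgs5 and Fth1. The set held the filament genes Acta2 and Tagln beside genes of other cells such as Igkc, Cd74 and Lyz2. Igkc had a median of 2 and a maximum of 339 UMIs of 1000 in WT members. In EC-iCD45KO members the ratios of Igkc and Ighg2b were 85.6 and 49.5, but 6.48 and 2.85 after thinning to 2000 UMIs. Ighg2b was detected in 0.719% of the EC-iCD45KO members thinned to 1000 UMIs. Acta2 had a median of 6 UMIs, a 90th percentile of 20 and a maximum of 54 in WT, and 8, 23 and 59 in EC-iCD45KO. Rgs5 had a median of 0 in both libraries, a 90th percentile of 3 in WT and 6 in EC-iCD45KO, and maxima of 23 and 22. Gm42418 overlaps the annotated gene AY036118 on the opposite strand, so its counts are uncertain. Across thinned members Acta2 and Tagln had a Pearson correlation of 0.76 over 891 members of WT and 0.72 over 1251 of EC-iCD45KO, and Acta2 and Myh11 of 0.40 and 0.44. These genes belong to the rule, and cells of 1 library share its preparation. Members of high depth were also those with the most contractile RNA, with 41779 CPM of the contractile genes outside the rule in WT and 44577 CPM in EC-iCD45KO at 4000 UMIs or more, against 20119 and 27413 CPM between 1000 and 2000 UMIs.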

How the data were processed

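In the files as deposited, values are unnormalized UMI counts, whole numbers for each gene in each barcode. Cell Ranger 7.1.0 and mm10 were used, per the submitters' processing notes. The annotation, intron setting and cell calling are not given in the sources used here. Each deposited barcode had at least 500 UMIs, and the libraries held 92058043 (WT) and 88967918 (EC-iCD45KO) counts over 39849 and 30278 barcodes. Of 32285 gene identifiers 32158 matched GENCODE M21 on GRCm38, and promoters came from RefSeq. The members, gene lists and tests were chosen with earlier results of these data known.

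UMIs were summed over members per library and scaled to CPM. Genes averaging 20 CPM or more were compared by log2 ratio with exact conditional binomial intervals. Levels carry exact Poisson and shares Clopper-Pearson intervals, all at 95%, and reads of 1 molecule are merged by UMI, so these cover counting error only. A share of 0 allows 3 counts. Named were the rule and label genes, the 10 largest differences each way and the 20 largest excesses over other classes at 50 CPM or more, the 15 most variable genes after thinning to 1000 UMIs, and list members. Of the 10 highest in EC-iCD45KO, 1 is not reported here. Calculations used Python 3.11.15, numpy 2.4.6, scipy 1.17.1 and pandas 2.3.3, figures matplotlib 3.10.9, and TMM factors edgeR 4.0.16. The ratio, its interval and the thinning were tested on simulated data. No doublets were removed. Alternatives covered the rule, the cell filter, depth, other cells' RNA, scaling and the filter on low genes.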

Additional observations from a re-analysis of the deposited data

Results flagged for a closer look

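For some named genes, Myl9, Dgkb and Ccl21a among them, the difference between EC-iCD45KO and WT had opposite signs in contractile members and in modulated cells. The difference between the 2 classes was not tested. Myl9 had a log2 ratio of -0.12 in members, at 3994 CPM in WT and 3678 CPM in EC-iCD45KO, and of 0.51 (0.48 to 0.55) in modulated cells. Dgkb had a log2 ratio of -0.28 in members, at 136 CPM in WT and 112 CPM in EC-iCD45KO, and of 0.71 (0.32 to 1.11) in modulated cells, at 11.7 and 19.1 CPM. The signs in members were not stable: Myl9 had 0.051 with at least 4 contractile genes and 0.029 with TMM scaling, and Dgkb had 0.51 without the deepest 10% of members.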

How the results depend on the processing

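No paired analysis was possible because only 1 library stood in each group. The alternatives of members with at least 4000 UMIs, without members rich in immunoglobulin and haemoglobin RNA, and without members with 5 or more macrophage markers were chosen after seeing the data, as were all alternatives for single genes. The cause of each change below was not tested. A list or gene is given as reversed where its interval (for a list, the medians of its genes' bounds) excluded 0 over all members and its sign changed.

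The EC-iCD45KO minus WT difference in share was 2.88 percentage points (2.57 to 3.19). It was 1.98 with at least 6 contractile genes, 3.43 with at least 4, 1.46 with at most 1 endothelial and 1 modulated gene, 3.75 with the rule applied after thinning and 0.34 without members with 2 leukocyte genes. The contractile median of 0.33 outside the rule was -0.053 without members with 2 leukocyte genes, 0.49 without the deepest 10% of members, 0.022 in members with at least 4000 UMIs and 0.48 with TMM scaling, which moved the median of all genes to 0.16. The Ptprc ratio of -1.16 was -1.31 with the stricter cell filter, -1.40 with the rule after thinning, -0.66 in members with at least 4000 UMIs, -2.51 without members with 5 or more macrophage markers and -1.01 with TMM.

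The count of 113 genes at least 2-fold higher became 57 with the rule after thinning, 752 without members with 2 leukocyte genes, 191 without the deepest 10%, 172 with TMM, 303 with a minimum of 5 CPM and 1042 with no minimum and 0.5 CPM added. The count of 239 lower genes became 954 without members with 2 leukocyte genes, 427 without members with 5 or more macrophage markers, 613 with a minimum of 5 CPM and 1593 with no minimum. The count of 15 genes at least 4-fold above every class became 8 with at least 4 contractile genes, 30 with the rule after thinning, 45 without members with 2 leukocyte genes, 7 without the deepest 10%, 33 both in members with at least 4000 UMIs and without members with 5 or more macrophage markers, and 9 as a mean of single-cell CPM. The count of 51 contractile genes above modulated cells ranged from 42 to 59.

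Without members with 2 leukocyte genes, which left 24 and 116 members, list medians reversed for calcium and channels (-0.20), receptors (-0.24), pericyte markers (-0.49), heat shock (-0.12), inflammation (-0.38), glucocorticoid and metallothionein genes (-0.14), cell cycle (1.54, but -4.06 in members with at least 4000 UMIs), and middle (-0.27) and posterior (-0.40) Hox genes. Single genes reversed there were Myh11 (-0.072), Ppp1r14a (-0.046), Mylk (-0.19), Ifitm1 (-1.95), Akap6 (-1.08), Aoc3 (-0.60), Des (-0.15), Ctnna3 (-0.43), Synpo2 (-0.11) and Tpm1 (-0.29). The cell cycle value rested on 1 tested gene over all members, at -0.45, and on 4 in members with at least 4000 UMIs. In members with at least 4000 UMIs the calcium list (-0.13), Lmod1 (-0.033), Mylk (-0.18), Hba-a2 (0.22), Akap6 (-0.00035), Kcnab1 (-0.011), Aoc3 (-0.035), Ctnna3 (-0.14), Synpo2 (-0.018) and Tpm1 (-0.21) reversed. Without members rich in immunoglobulin and haemoglobin RNA, Hbb-bt (1.03), Hba-a2 (0.80), Hbb-bs (0.21) and Tpm1 (-0.069) reversed. Without members with 5 or more macrophage markers, the inflammation list (-0.89) and Ifitm1 (-0.20) reversed. The other reversals were Tpm1 (-0.089) with at least 6 contractile genes, Myl9 with at least 4 (0.051) and with TMM (0.029), Dgkb (0.51) and Gucy1a1 (0.16) without the deepest 10%, and the posterior Hox list (-0.70) with no minimum. Values whose interval included 0 also changed sign, such as the thick filament (-0.12), transcription factor (-0.17), Notch (-0.17) and respiratory chain (-0.11) medians and Npy1r (-0.29) and Rgs4 (-0.32) in members with at least 4000 UMIs. Depth limits single genes: at the median of 1488 and 1510 UMIs per member, genes near 20 CPM had few counts in WT.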
